A study of Mus musculus with 6 samples.

Results

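Platelet-derived growth factors (PDGFs) are secreted dimers that act on mesenchymal cells through a pair of receptor tyrosine kinases, PDGFR-alpha and PDGFR-beta. The A and B chains are cut by furin-type proteases inside the cell, whereas the C and D chains leave the cell with a CUB domain that plasminogen activators and related proteases remove outside it. In the kidney, ligands made by endothelial and epithelial cells recruit and maintain mesangial cells and pericytes, and the same receptors are known for their part in the expansion of interstitial fibroblasts. The 6 genes described here are the 4 ligands Pdgfa, Pdgfb, Pdgfc and Pdgfd and the 2 receptors Pdgfra and Pdgfrb, taken by symbol from the 33696 genes in the count matrices. All 6 had UMIs (unique molecular identifiers, each one counted transcript copy) in all 6 mice.

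Single cells from the kidneys of male C57BL/6 mice, 8 to 10 weeks old when bought, were sequenced with the 10x Genomics 3′ chemistry, 1 library per mouse. The sham group (3 mice) had a sham operation, normal water and no pellet. The DOCA-salt group (3 mice) lost the left kidney, and 1 week later received a 50 mg pellet of deoxycorticosterone acetate (DOCA) under the skin and drank 1% NaCl for 21 days. Nephrectomy and DOCA-salt therefore cannot be told apart, and no group had either alone. The libraries held 11058 to 14449 barcodes and 93172739 to 137819127 UMIs each, and 55630 cells remained after filtering, with a median of 4787 to 9148 UMIs and of 15.5 to 25.8% mitochondrial UMIs per mouse. Each pair of libraries shared 15 to 36 barcodes among the cells kept. DOCA-salt 2 stood apart in holding 485 cells of a cluster without a name, led by Slc13a1 and Ttr, of which each other mouse had 2 to 7. It also held 97 of the 98 cells of a smaller cluster without a name, led by Ptgds and Cfi.

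Cells were grouped by marker genes that included none of the 6 members, and each type below is a marker-defined class (for instance, "connecting tubule" stands for cells resembling the connecting tubule). Levels are given as CPM, the UMIs of a gene per 1000000 UMIs of the same mouse and cell type, in the order of replicates 1, 2 and 3. Changes are log2 differences, DOCA-salt minus sham, from edgeR's quasi-likelihood test with its standard error (SE), and p-values are adjusted over all genes tested in the same cell type. The mouse is the replicate, and the threshold is an adjusted p of 0.05.

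In whole kidneys, both receptors and the ligands Pdgfa and Pdgfb rose, Pdgfd stood just short of the threshold and Pdgfc differed little. These are 4 of 6 members higher and 0 lower, where 11.5% of all genes tested rose and 5.69% fell (17.2% in either direction). In sums over all cells, fewer cells of a type and less RNA per cell cannot be told apart. Pdgfra was counted at 0.498, 0.324 and 0.246 CPM in the sham mice and 5.89, 10.7 and 12.3 CPM in the DOCA-salt mice. The log2 change was 4.60 (SE 0.35, adjusted p = 3.20e-04). Pdgfrb was counted at 2.93, 4.55 and 3.67 CPM in the sham mice and 14.6, 20.6 and 29.8 CPM in the DOCA-salt mice. Its log2 change was 2.42 (SE 0.26, adjusted p = 0.00110). For both receptors every DOCA-salt mouse lay above every sham mouse.

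Among the ligands, Pdgfb stood at 18.4, 21.9 and 21.8 CPM in the sham mice and 29.8, 40.8 and 48.3 CPM in the DOCA-salt mice. edgeR put the log2 change at 0.81 (SE 0.16, adjusted p = 0.0120). The lowest DOCA-salt mouse was above the highest sham mouse, and DOCA-salt 3 was the highest of all 6. Pdgfa stood at 36.7, 30.2 and 32.3 CPM in the sham mice and 43.98, 48.2 and 47.98 CPM in the DOCA-salt mice. This was a log2 change of 0.38 (SE 0.10, adjusted p = 0.0349), again without overlap. Pdgfd stood at 58.05, 59.3 and 67.02 CPM in the sham mice and 74.95, 89.3 and 107 CPM in the DOCA-salt mice. The fitted log2 change was 0.43 (SE 0.13, adjusted p = 0.0570), where the groups did not overlap although the threshold was missed. Pdgfc stood at 49.3, 53.3 and 52.5 CPM in the sham mice and 56.7, 63.3 and 51.7 CPM in the DOCA-salt mice. Here the log2 change was 0.030 (SE 0.10, adjusted p = 0.875), and the groups overlapped. The call on Pdgfa was lost when leaving out sham 3 (0.0976), DOCA-salt 1 (0.0603), DOCA-salt 2 (0.102) or DOCA-salt 3 (0.123), and that on Pdgfb when leaving out sham 1 (0.0542), with the adjusted p in brackets. Pdgfd passed without DOCA-salt 1 (0.0301). Over all alternatives the adjusted p ranged from 0.00859 to 0.127 for Pdgfa, from 1.63e-04 to 0.0542 for Pdgfb and from 0.0244 to 0.198 for Pdgfd.

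**Figure D1:**
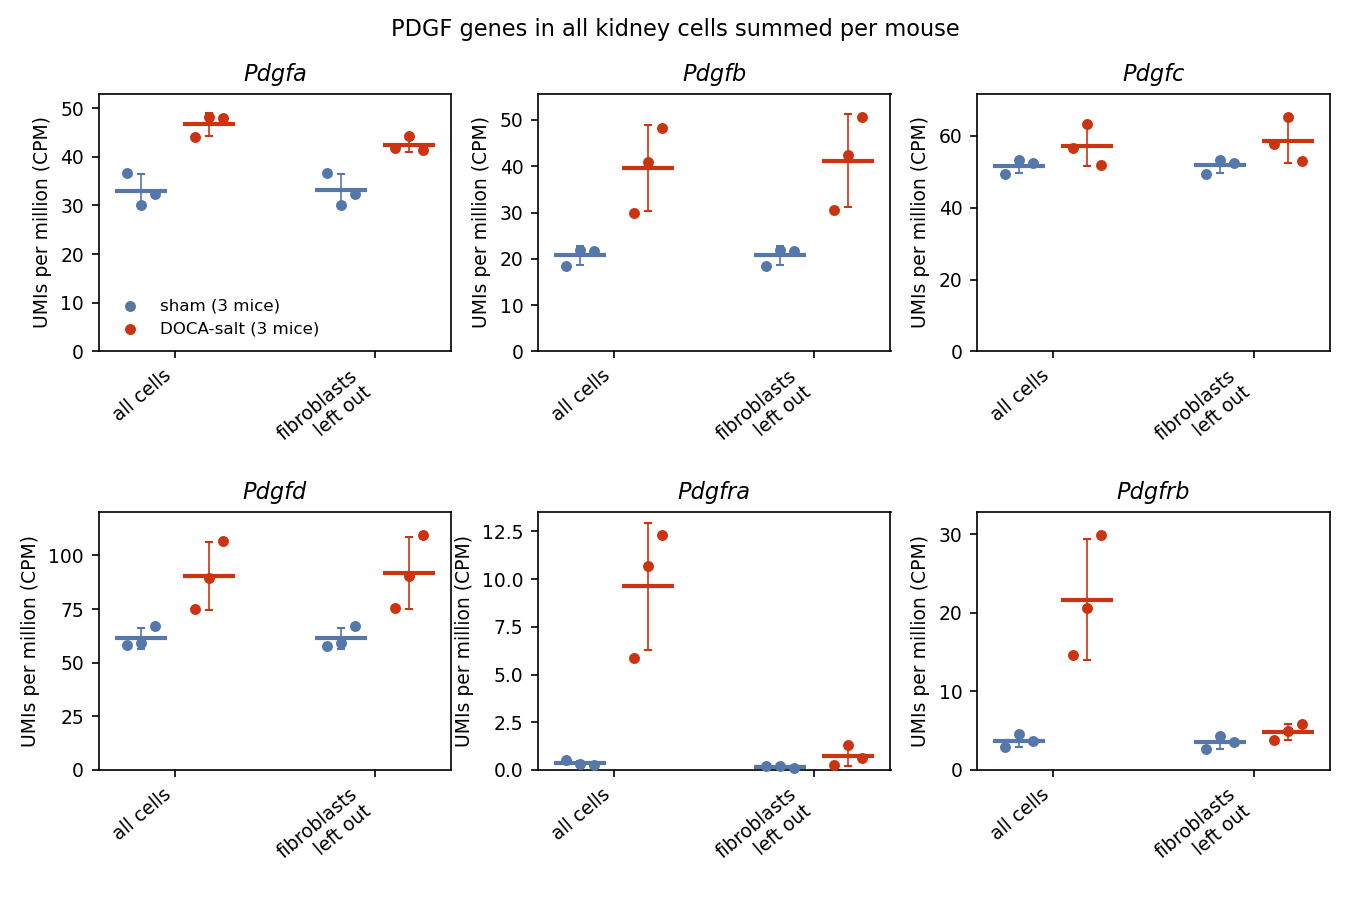
CPM of each PDGF gene in all cells of a mouse and with fibroblasts left out, for 3 sham mice (blue) and 3 DOCA-salt mice (red); points are mice, long bars means, whiskers SD. With fibroblasts left out, Pdgfrb ranges from 2.72 to 4.36 CPM in the sham mice and 3.76 to 5.80 CPM in the DOCA-salt mice, against 2.93 to 4.55 CPM in the sham mice and 14.6 to 29.8 CPM in the DOCA-salt mice with them.

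The receptors' rise in whole kidneys went with the number of fibroblasts. There were 22, 6 and 9 cells in the sham mice and 218, 298 and 306 cells in the DOCA-salt mice, or 0.130 ± 0.0802% of the sham cells and 2.91 ± 0.390% of the DOCA-salt cells (two-sided exact permutation test over mice, p = 0.1, the smallest that 3 against 3 allows). With fibroblasts left out of the sums, Pdgfrb stood at 2.72, 4.36 and 3.51 CPM in the sham mice and 3.76, 4.95 and 5.80 CPM in the DOCA-salt mice (log2 change 0.36, adjusted p = 0.317), and the groups overlapped. Pdgfra without fibroblasts stood at 0.199, 0.206 and 0.108 CPM in the sham mice and 0.247, 1.29 and 0.605 CPM in the DOCA-salt mice (log2 change 1.95, adjusted p = 0.0663), from 39 UMIs over the sham mice and 191 over the DOCA-salt mice. Of those 191, 52 lay in the unnamed cluster of DOCA-salt 2, which also held 104 UMIs of Pdgfrb. Pdgfa was also no longer past the threshold without fibroblasts (log2 change 0.27, adjusted p = 0.127), whereas Pdgfb and Pdgfd stood at 18.5 to 21.96 CPM in the sham mice and 30.6 to 50.6 CPM in the DOCA-salt mice and at 58.02 to 67.04 CPM in the sham mice and 75.7 to 109 CPM in the DOCA-salt mice, as high as with fibroblasts included.

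The cell types that held each gene's UMIs differed between the members and between the groups. Of the UMIs of Pdgfra, fibroblasts held 50.9 ± 12.7% in the sham mice and 93.2 ± 4.17% in the DOCA-salt mice (mean ± SD over n = 3 mice), out of a sham total of 83 UMIs. Of the UMIs of Pdgfrb, smooth muscle cells or pericytes held 43.4 ± 5.49% in the sham mice and 7.36 ± 2.80% in the DOCA-salt mice, parietal epithelial cells held 28.5 ± 2.72% in the sham mice and 5.69 ± 1.66% in the DOCA-salt mice, and fibroblasts held 5.33 ± 1.61% in the sham mice and 77.8 ± 3.39% in the DOCA-salt mice. The largest holder of Pdgfrb thus differed between the groups, while smooth muscle cells and pericytes were 0.966 ± 0.216% of the sham cells and 0.688 ± 0.0731% of the DOCA-salt cells (exact permutation p = 0.2). These shares leave out a cluster led by Hpse2, Col19a1 and Myocd, which scored highest for this class but stayed unnamed at its low depth (median 2117 UMIs). It had 33, 37 and 39 sham and 37, 25 and 28 DOCA-salt cells.

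The UMIs of the ligands lay mainly in epithelial and endothelial cells. Of those of Pdgfb, endothelial cells held 39.7 ± 0.961% in the sham mice and 33.7 ± 1.90% in the DOCA-salt mice. Of the UMIs of Pdgfd they held 29.7 ± 1.29% in the sham mice and 33.4 ± 5.39% in the DOCA-salt mice. The thick ascending limb, the salt-reabsorbing end of the loop of Henle, held 29.5 ± 4.17% in the sham mice and 16.9 ± 3.30% in the DOCA-salt mice. For Pdgfc the proximal tubule, by far the most numerous type, held 80.6 ± 1.49% in the sham mice and 70.3 ± 4.25% in the DOCA-salt mice. For Pdgfa the proximal tubule held 38.5 ± 5.52% in the sham mice and 28.9 ± 6.05% in the DOCA-salt mice, the thin limb 23.1 ± 1.26% in the sham mice and 9.90 ± 2.04% in the DOCA-salt mice, and fibroblasts 0.0325 ± 0.0563% in the sham mice and 12.5 ± 5.30% in the DOCA-salt mice.

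**Figure D2:**
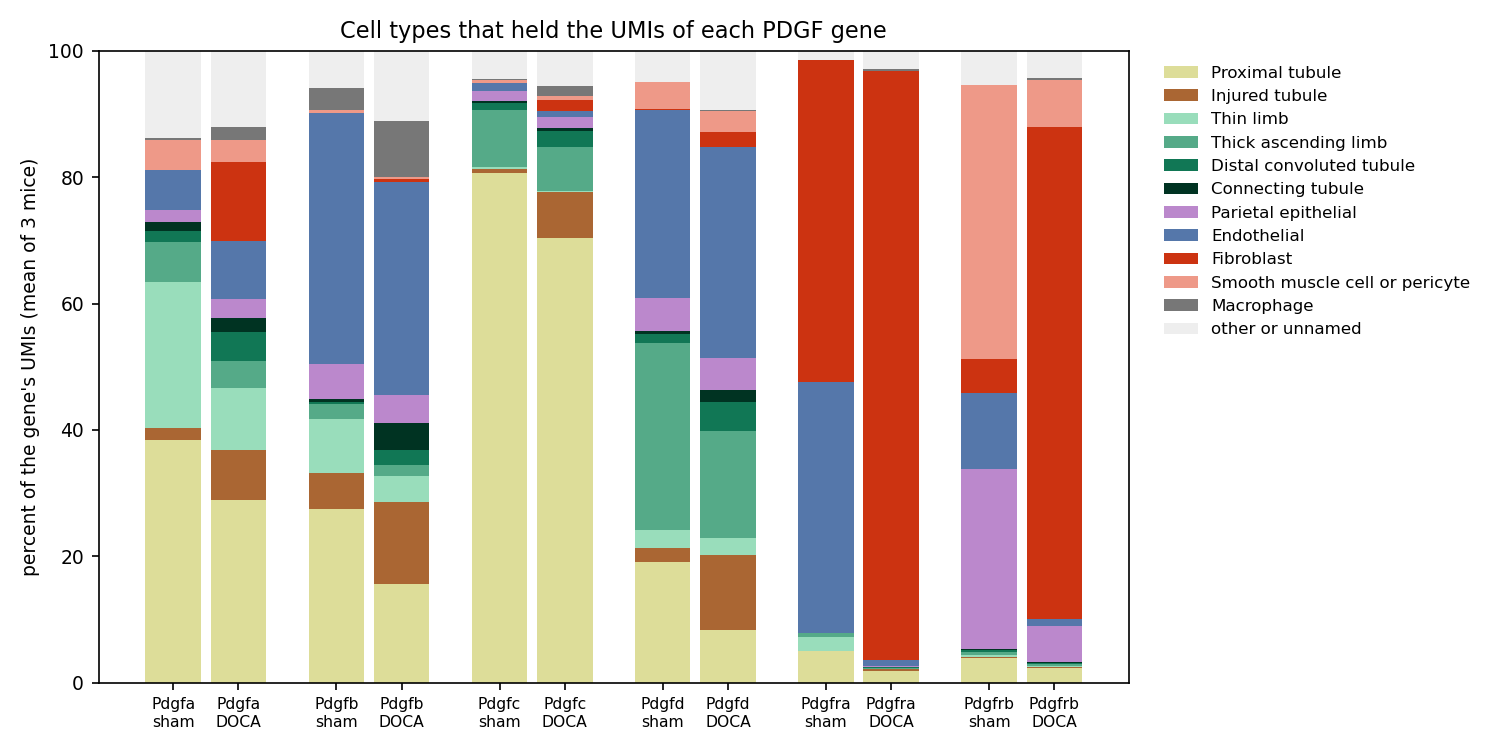
Percent of each gene's UMIs that lay in each cell type, as the mean of the 3 mice of a group, stacked to 100%; paler grey is every other or unnamed cell. Red, the fibroblasts, takes 93.2% of Pdgfra and 77.8% of Pdgfrb in the DOCA-salt mice.

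Levels within cell types separate the amount per cell class from the number of cells. The members were tested in 13 cell types, and some of them also in cycling cells and dendritic cells. The changes of Pdgfb and Pdgfd were larger in the connecting tubule than in any other of these classes. The connecting tubule is the segment between the distal convoluted tubule and the collecting duct, where the mineralocorticoid receptor acts on the epithelial sodium channel. All 4 ligands rose there. Neither receptor had enough UMIs there to be tested (2 UMIs or fewer in every mouse). These 4 of 4 tested members compare with 10.6% of all genes higher and 10.2% lower in that type (20.8% in either direction), so the type as a whole differed strongly between the groups.

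Pdgfb, the chain that binds both receptors, stood in the connecting tubule at 5.91, 3.80 and 4.72 CPM in the sham mice and 49.2, 92.2 and 161 CPM in the DOCA-salt mice. In edgeR's fit the log2 change was 4.18 (SE 0.45, adjusted p = 1.41e-05). The lowest DOCA-salt mouse was far above the highest sham mouse, and the DOCA-salt mice spread more among themselves than the sham mice did. These values rest on 9, 6 and 9 UMIs in the sham mice and on 92, 170 and 183 in the DOCA-salt mice. In DOCA-salt 1, 39 of the 92 UMIs lay in 1 cell, and in DOCA-salt 3 the top cell held 33 of 183. After thinning each cell to 1000 UMIs, the expected share of connecting tubule cells with a Pdgfb UMI was 0.430, 0.650 and 0.289% in the sham mice and 2.59, 6.50 and 9.51% in the DOCA-salt mice (exact permutation p = 0.1), while in proximal tubule cells it was 0.967 to 1.04% in the sham mice and 1.10 to 1.48% in the DOCA-salt mice. The sham connecting tubule was thus below the proximal tubule and the DOCA-salt connecting tubule above it. Without thinning, the shares were 3.70, 3.08 and 2.65% in the sham mice and 21.7, 34.1 and 25.5% in the DOCA-salt mice, at median depths of 8462 and 11529 UMIs per cell in sham and DOCA-salt.

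Pdgfd, which acts mainly through PDGFR-beta once its CUB domain is cut off, stood in the connecting tubule at 9.85, 11.4 and 9.43 CPM in the sham mice and 62.5, 112 and 123 CPM in the DOCA-salt mice. The log2 change was 3.11 (SE 0.28, adjusted p = 3.08e-06). All DOCA-salt mice exceeded all sham mice. With at most 20% mitochondrial UMIs the log2 change was larger, at 4.61. The thinned share of cells with a UMI was 1.24, 0.815 and 1.08% in the sham mice and 4.97, 7.76 and 8.29% in the DOCA-salt mice (exact permutation p = 0.1), and in T or NK cells, taken as a type without the gene, 0 to 1.09% in the sham mice and 0 to 0.639% in the DOCA-salt mice. Some cells held both ligands: 61 of 402 DOCA-salt connecting tubule cells had a UMI of Pdgfb and of Pdgfd (15, 27 and 19 cells in the 3 mice). Among the 621 sham cells, 19 had a UMI of Pdgfb alone, 31 of Pdgfd alone and 0 of both, which allows a share of cells with both UMIs of up to 0.483% (counting error only). These cells were not thinned to 1 depth, and the shares of cells with both were not compared between the groups.

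Pdgfa, which acts through PDGFR-alpha, stood in the connecting tubule at 17.7, 22.8 and 17.3 CPM in the sham mice and 56.1, 53.1 and 57.97 CPM in the DOCA-salt mice. Its log2 change was 1.38 (SE 0.18, adjusted p = 9.90e-05), with the DOCA-salt mice close together and all above the sham mice. Pdgfc, another ligand of PDGFR-alpha, was low there at 7.88, 5.69 and 5.76 CPM in the sham mice and 14.4, 14.1 and 14.9 CPM in the DOCA-salt mice. edgeR put the log2 change at 1.01 (SE 0.31, adjusted p = 0.0316). The groups did not overlap, but its call was lost when leaving out sham 2 (0.0649), sham 3 (0.105), DOCA-salt 1 (0.0717), DOCA-salt 2 (0.0863) or DOCA-salt 3 (0.0780), and over all alternatives the adjusted p ranged from 0.00811 to 0.111. The calls on Pdgfa, Pdgfb and Pdgfd held in each of the 6 fits that left out 1 mouse.

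Other genes moved in the same connecting tubule cells. The type made up 2.28 ± 0.555% of the sham cells and 1.43 ± 0.142% of the DOCA-salt cells (exact permutation p = 0.1). Its summed markers of injured tubule (6 genes, among them Havcr1 and Lcn2) stood at 4.43 to 7.86 CPM in the sham mice and 495 to 727 CPM in the DOCA-salt mice, and its summed principal cell markers at 4783 to 6998 CPM in the sham mice and 1351 to 1756 CPM in the DOCA-salt mice. Aqp2, the water channel of principal cells, stood at 1193 to 1268 CPM in the sham mice and 176 to 209 CPM in the DOCA-salt mice. Slc12a3, the sodium-chloride cotransporter of the distal convoluted tubule, stood at 400.4 to 699.6 CPM in the sham mice and 1164 to 1495 CPM in the DOCA-salt mice, without overlap. Of the markers of the connecting tubule itself, the calcium channel Trpv5 was lower, at 516 to 627 CPM in the sham mice and 305 to 351 CPM in the DOCA-salt mice, and the sodium-calcium exchanger Slc8a1 higher, at 7038 to 9649 CPM in the sham mice and 13660.4 to 15299 CPM in the DOCA-salt mice, both without overlap. The calcium-binding protein Calb1 was at 2836 to 4160.2 CPM in the sham mice and 2285 to 3101 CPM in the DOCA-salt mice, and the groups overlapped. Endothelial cells are rich in Pdgfb, and the sum of 15 endothelial markers in the connecting tubule was 16.4 to 65.5 CPM in the sham mice and 36.3 to 60.7 CPM in the DOCA-salt mice. The part of these marker shifts in the ligand values was not tested.

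Next to the connecting tubule, in the distal convoluted tubule, Pdgfb stood at 3.23, 2.48 and 4.80 CPM in the sham mice and 23.7, 30.5 and 26.1 CPM in the DOCA-salt mice (log2 change 2.68, SE 0.33, adjusted p = 3.80e-04) and Pdgfd at 49.2, 50.8 and 69.99 CPM in the sham mice and 119, 126 and 109.8 CPM in the DOCA-salt mice. This was a log2 change of 0.88 (SE 0.18, adjusted p = 0.00788). Both rose without overlap, as 2 of 4 tested members, where 7.58% of all genes changed in either direction. With at most 20% mitochondrial UMIs the call on Pdgfd was lost (log2 change 0.84, adjusted p = 0.0881), with 2.64e-05 to 0.0881 over all alternatives. Pdgfa was there at 43.6, 27.2 and 37.7 CPM in the sham mice and 67.3, 69.2 and 52.6 CPM in the DOCA-salt mice. The fitted log2 change was 0.62 (SE 0.19, adjusted p = 0.0750). The injured tubule markers also differed in this type, at 50.8 to 78.2 CPM in the sham mice and 526 to 715 CPM in the DOCA-salt mice, and their part was not tested.

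In principal cells, the water- and sodium-handling cells of the collecting duct, Pdgfb stood at 11.5, 16.9 and 9.45 CPM in the sham mice and 28.4, 25.9 and 80.7 CPM in the DOCA-salt mice. Here the log2 change was 1.87 (SE 0.41, adjusted p = 0.0137). It was the only one of 3 tested members past the threshold, beside 8.53% of all genes, and Pdgfd just missed it (log2 change 1.51, SE 0.44, adjusted p = 0.0502). DOCA-salt 3 was the highest mouse, and without it the log2 change was 1.14. The call was lost when leaving out sham 1 (0.0650) or sham 3 (0.0632), with 6.59e-13 to 0.0650 over all alternatives. In intercalated cells, the acid-base cells of the same duct, Pdgfb stood at 2.47, 0.267 and 2.29 CPM in the sham mice and 7.33, 20.5 and 13.4 CPM in the DOCA-salt mice (log2 change 2.91, SE 0.49, adjusted p = 0.00749) and Pdgfd at 18.7, 28.3 and 19.4 CPM in the sham mice and 30.03, 45.7 and 42.7 CPM in the DOCA-salt mice (log2 change 0.87, SE 0.20, adjusted p = 0.0282), 2 of 4 tested members beside 6.11% of all genes. The thinned share of intercalated cells with a Pdgfb UMI, 0.0247 to 0.249% in the sham mice and 0.429 to 0.881% in the DOCA-salt mice, was below that of proximal tubule cells in every mouse, and below that of T or NK cells (0.496 to 1.60% in the sham mice and 1.05 to 1.46% in the DOCA-salt mice). The part of free RNA in the intercalated values was not tested. With at most 20% mitochondrial UMIs the log2 change of Pdgfb in intercalated cells was 3.78. The call on Pdgfd was lost when leaving out sham 1 (0.101), sham 3 (0.111), DOCA-salt 2 (0.0810) or DOCA-salt 3 (0.131), with 1.44e-05 to 0.151 over all alternatives.

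Whether the change of a ligand differed between segments was tested directly, in pairs chosen after the values were seen. Each fit estimated 1 spread per gene over both types together. Its p-values therefore do not measure the spread within the connecting tubule alone. For Pdgfb the SE of the difference from the proximal tubule, 0.32, was below the SE of the connecting tubule change by itself, 0.45. Against the proximal tubule, the connecting tubule changed more for Pdgfb (difference of log2 changes 3.77, SE 0.32, adjusted p = 8.37e-12), for Pdgfd (difference of log2 changes 3.52, SE 0.27, adjusted p = 4.13e-13) and for Pdgfa (difference of log2 changes 1.02, SE 0.21, adjusted p = 4.24e-04). Against the distal convoluted tubule, the difference passed for Pdgfd (difference of log2 changes 2.20, SE 0.31, adjusted p = 4.80e-05) and did not for Pdgfb (difference of log2 changes 1.36, SE 0.70, adjusted p = 0.292) or Pdgfa (difference of log2 changes 0.76, SE 0.25, adjusted p = 0.0689).

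**Figure D3:**
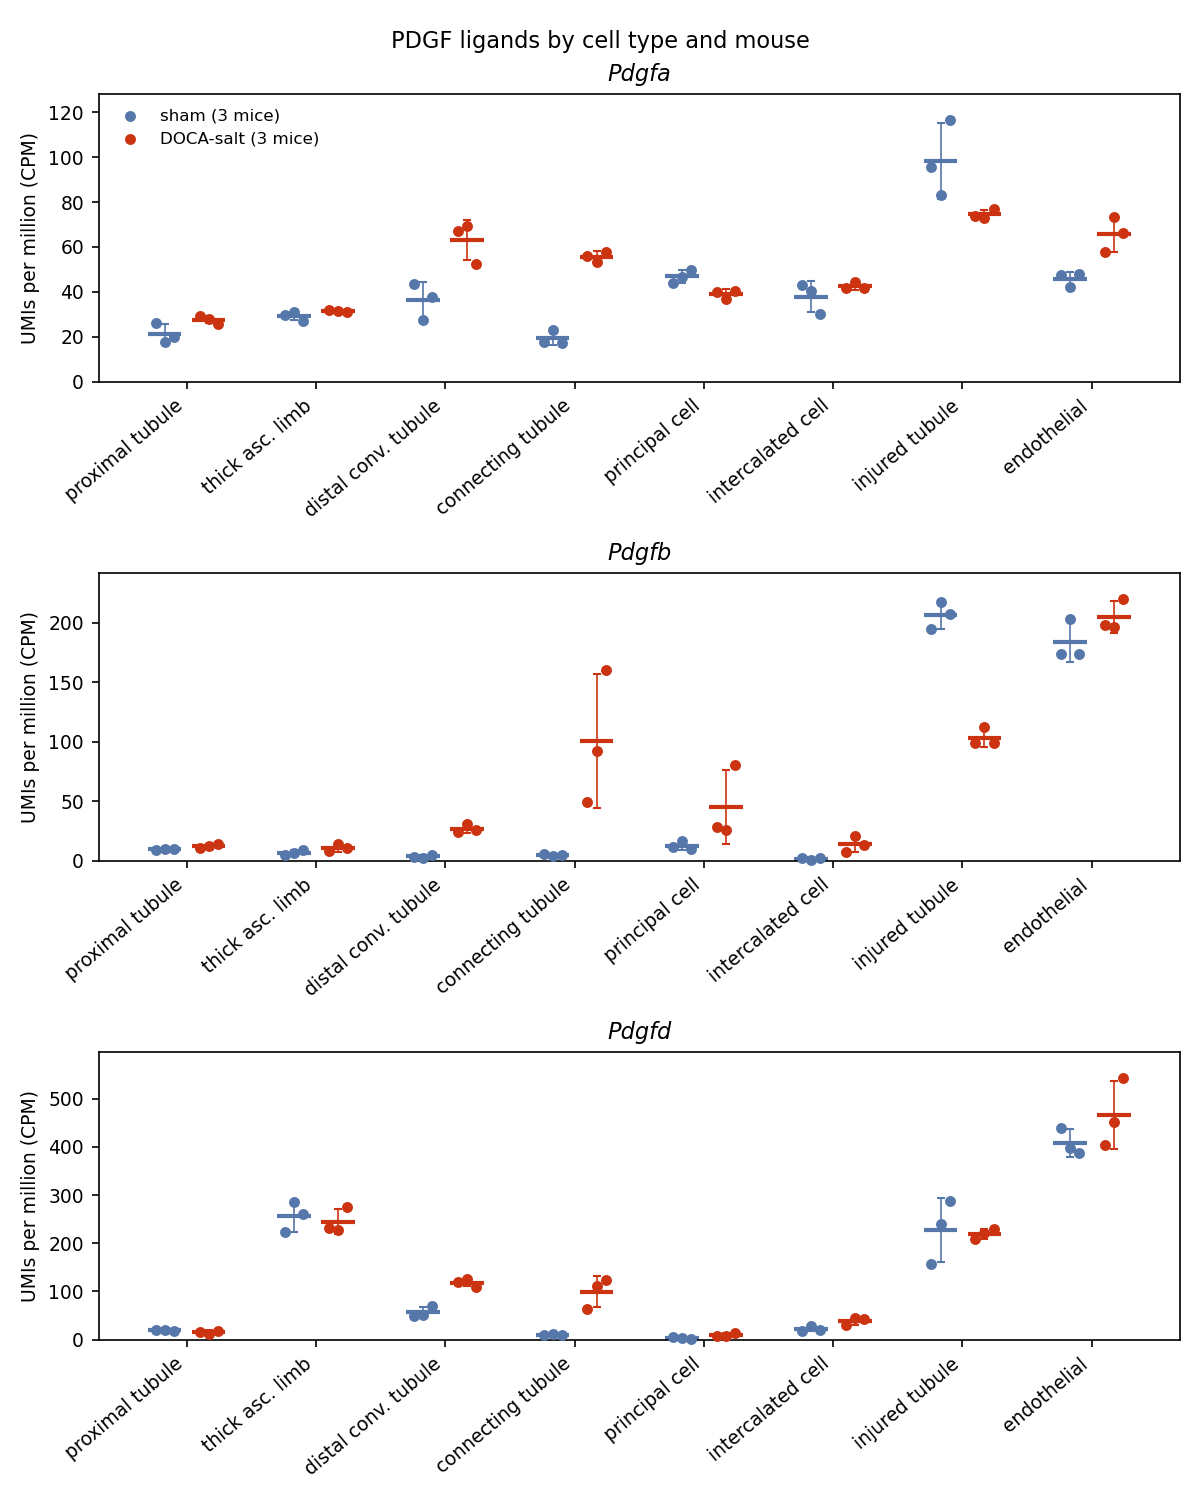
CPM of Pdgfa, Pdgfb and Pdgfd in 8 cell types; points are mice (3 sham in blue, 3 DOCA-salt in red), long bars means, whiskers SD. In the connecting tubule the DOCA-salt mice lie above all sham mice for each of the 3 ligands, and in the injured tubule Pdgfb lies lower in the DOCA-salt mice.

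Injured tubule cells, marked by Havcr1, Vcam1 and Sox9, showed the opposite for Pdgfb, at 195, 218 and 208 CPM in the sham mice and 98.8, 113 and 98.6 CPM in the DOCA-salt mice. In edgeR's fit the log2 change was -1.01 (SE 0.16, adjusted p = 4.72e-04). Every DOCA-salt mouse lay below every sham mouse. It was 1 of 4 tested members past the threshold, beside 7.75% of all genes (5.07% lower), and the call held in each of the 6 fits without 1 mouse. The type itself went from 18, 29 and 45 cells in the sham mice to 174, 185 and 235 in the DOCA-salt mice, so that its share of all Pdgfb UMIs was 5.71 ± 2.45% in the sham mice and 12.98 ± 1.33% in the DOCA-salt mice. Its own summed markers stood at 928 to 1057 CPM in the sham mice and 838 to 905 CPM in the DOCA-salt mice. Pdgfd in injured tubule cells was at 157 to 287 CPM in the sham mice and 209 to 229 CPM in the DOCA-salt mice (log2 change -0.092, SE 0.19, adjusted p = 0.839), and Pdgfa at 82.9 to 117 CPM in the sham mice and 73.02 to 76.8 CPM in the DOCA-salt mice (log2 change -0.42, SE 0.18, adjusted p = 0.183).

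In the remaining tubular types no ligand passed the threshold, and the shares of all genes called there were 7.35% in the proximal tubule, 1.37% in the thick ascending limb and 0.626% in the thin limb. In the proximal tubule Pdgfc stood at 64.4, 68.2 and 74.8 CPM in the sham mice and 78.7, 96.8 and 75.5 CPM in the DOCA-salt mice. The log2 change was 0.22 (SE 0.12, adjusted p = 0.319), where the groups did not overlap. The thick ascending limb held Pdgfd at 222, 285 and 259.8 CPM in the sham mice and 232, 228 and 275 CPM in the DOCA-salt mice. Its log2 change was -0.074 (SE 0.12, adjusted p = 0.879), and the groups overlapped. In the thin limb Pdgfd stood at 41.9, 28.03 and 43.5 CPM in the sham mice and 64.8, 71.2 and 106 CPM in the DOCA-salt mice. edgeR put the log2 change at 1.09 (SE 0.22, adjusted p = 0.0546). The groups did not overlap there, and its adjusted p over all alternatives ranged from 4.20e-08 to 0.198. With all tubular types pooled, Pdgfb stood at 10.5, 11.7 and 11.9 CPM in the sham mice and 17.7, 25.1 and 28.8 CPM in the DOCA-salt mice (log2 change 1.02, SE 0.17, adjusted p = 0.00946), beside 8.31% of all genes called in either direction. This pool includes the injured tubule cells, which are rich in Pdgfb and made up 0.337 ± 0.140% of the sham cells and 2.11 ± 0.284% of the DOCA-salt cells. With them left out, a set chosen after the values were seen and not tested, Pdgfb stood at 9.90, 10.2 and 9.95 CPM in the sham mice and 13.1, 19.3 and 22.6 CPM in the DOCA-salt mice, still without overlap.

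In endothelial cells, a main source of PDGF-B and PDGF-D for the cells that wrap vessels, 1 of 6 tested members passed, beside 8.91% of all genes. Pdgfb stood at 174, 203 and 174 CPM in the sham mice and 198, 197 and 220.5 CPM in the DOCA-salt mice. This was a log2 change of 0.15 (SE 0.12, adjusted p = 0.485), and the groups overlapped. Fitted alone, the sub-classes had larger Pdgfb changes than the pool, of 0.33 in arterial cells (adjusted p = 0.494, 188 to 218 CPM in the sham mice and 232 to 273 CPM in the DOCA-salt mice), 0.35 in capillary cells (adjusted p = 0.188, 122 to 169 CPM in the sham mice and 159.8 to 202 CPM in the DOCA-salt mice) and 0.37 in glomerular cells (adjusted p = 0.739). None passed, and the unadjusted p was 0.0298, 0.0346 and 0.175. The pooled change was smaller in endothelial than in tubular cells (difference of log2 changes -0.81, SE 0.13, adjusted p = 6.34e-04), and the make-up of both pools differed between the groups. Pdgfd stood at 440.0, 397 and 386 CPM in the sham mice and 404, 452 and 543 CPM in the DOCA-salt mice. The fitted log2 change was 0.19 (SE 0.14, adjusted p = 0.457), with DOCA-salt 3 the highest, and its change did not pass as different from that in tubular cells (difference of log2 changes -0.22, SE 0.12, adjusted p = 0.298). Pdgfa rose, at 47.3, 41.96 and 47.9 CPM in the sham mice and 57.6, 73.2 and 66.03 CPM in the DOCA-salt mice. Here the log2 change was 0.52 (SE 0.14, adjusted p = 0.0380). That call was lost when leaving out sham 1 (0.113), sham 3 (0.0618), DOCA-salt 2 (0.146) or DOCA-salt 3 (0.122), with 0.00491 to 0.147 over all alternatives. The numbers of the sub-classes differed too: arterial cells went from 265, 217 and 309 to 158, 231 and 264, and capillary cells from 241, 265 and 197 to 385, 527 and 513. The arterial counts include a cluster of low depth (median 786.5 UMIs), led by Camk1d, Cmss1 and Nherf2. It had 46, 17 and 63 sham and 15, 103 and 132 DOCA-salt cells, so the arterial counts depend on it. Among the capillary clusters, one led by Npr3, Btnl9 and Ptpru had 191, 179 and 169 sham and 58, 51 and 99 DOCA-salt cells. Another, led by Gpihbp1, Gzmk and Fabp5, had 14, 39 and 5 sham and 183, 304 and 272 DOCA-salt cells. For the endothelial values the make-up of the class and the level per cell cannot be told apart. Fitted alone, arterial cells held Pdgfa at 38.7 to 45.4 CPM in the sham mice and 47.9 to 66.1 CPM in the DOCA-salt mice (adjusted p = 0.460) and capillary cells at 43.6 to 73.9 CPM in the sham mice and 63.6 to 79.8 CPM in the DOCA-salt mice (adjusted p = 0.459), and neither passed.

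**Figure D4:**
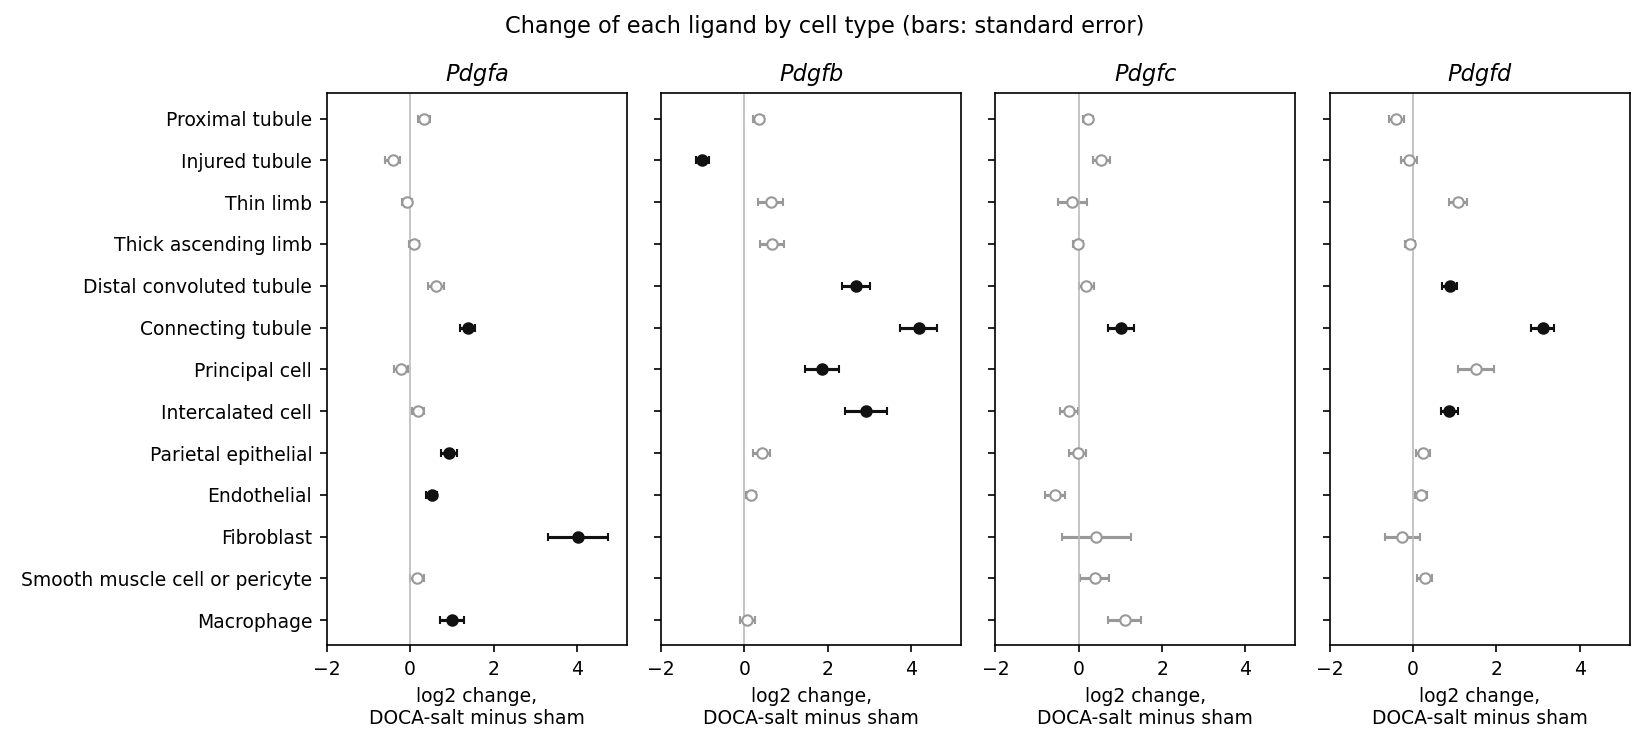
Log2 change (DOCA-salt minus sham) of the 4 ligands in 13 cell types, with bars for the standard error; filled black points have an adjusted p below 0.05, open grey points do not, and types without a point had too few UMIs for the test. The points farthest to the right are Pdgfb (4.18) and Pdgfd (3.11) in the connecting tubule and Pdgfa in fibroblasts (4.03), and the only filled point left of 0 is Pdgfb in injured tubule cells (-1.01).

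Pdgfa also rose in parietal epithelial cells and in macrophages. In parietal epithelial cells, a class led by Wt1 and Ncam1, it stood at 55.7, 59.5 and 42.2 CPM in the sham mice and 111, 79.4 and 111 CPM in the DOCA-salt mice (log2 change 0.94, SE 0.20, adjusted p = 0.0367), 1 of 5 tested members beside 1.56% of all genes. Macrophages held Pdgfa at 13.7, 10.5 and 13.1 CPM in the sham mice and 23.9, 28.7 and 27.5 CPM in the DOCA-salt mice (log2 change 1.01, SE 0.29, adjusted p = 0.0404), 1 of 3 tested members beside 6.93% of all genes. In both types every DOCA-salt mouse was above every sham mouse. Different clusters held most macrophages in the groups. One led by Mmp13, Ccl4 and Ccl3 had 113, 77 and 108 cells in the sham mice and 35, 26 and 61 in the DOCA-salt mice. Another, led by Ptpro, Lilra5 and Apoe, had 8, 33 and 5 sham and 164, 146 and 210 DOCA-salt cells, and one led by Ccl8, Ccl7 and Pf4 had 5, 3 and 1 sham and 112, 231 and 152 DOCA-salt cells. The make-up of the class and the level per cell cannot be told apart. Leaving out sham 1 (0.113), sham 2 (0.0961), sham 3 (0.169), DOCA-salt 1 (0.121) or DOCA-salt 3 (0.148) took the parietal call away, and leaving out sham 1 (0.124), sham 2 (0.106), sham 3 (0.0903), DOCA-salt 1 (0.0520), DOCA-salt 2 (0.0881) or DOCA-salt 3 (0.0816) the macrophage call, with 9.17e-04 to 0.169 and 0.0179 to 0.136 over all alternatives. In the parietal class the 12 summed smooth muscle and pericyte markers, cells in which Pdgfa is high, were at 985 to 1366 CPM in the sham mice and 2100.2 to 5870.1 CPM in the DOCA-salt mice, and their part was not tested. Pdgfb in macrophages, which are known to make PDGF-B, stood at 82.4, 83.6 and 91.7 CPM in the sham mice and 78.2, 107 and 101 CPM in the DOCA-salt mice. In edgeR's fit the log2 change was 0.071 (SE 0.17, adjusted p = 0.884), with overlap.

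Among cycling cells, a class that pools proliferating cells of several types, Pdgfb stood at 9.24, 7.96 and 42.1 CPM in the sham mice and 63.8, 86.3 and 91.4 CPM in the DOCA-salt mice (log2 change 2.25, SE 0.52, adjusted p = 0.0413), 1 of 4 tested members beside 5.52% of all genes. One of its clusters, whose second marker class was endothelial, had 1, 0 and 3 cells in the sham mice and 29, 36 and 28 in the DOCA-salt mice, beside 95, 161 and 43 sham and 98, 97 and 78 DOCA-salt cells in the other. The part of this shift in the Pdgfb values was not tested. Without sham 3, the highest sham mouse, the log2 change was 3.03, and at Leiden resolution 2 it was 2.89. The call was lost when leaving out sham 1 (0.221), sham 2 (0.115), DOCA-salt 1 (0.107), DOCA-salt 2 (0.173) or DOCA-salt 3 (0.165), with 1.40e-05 to 0.221 over all alternatives.

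Of the receptors, Pdgfra was above 5 CPM in fibroblasts alone among the 13 types. Outside them, cycling cells of DOCA-salt 2 held 23 UMIs (12.2 CPM) and those of the other mice 0. Fibroblasts held it at 222, 166 and 148 CPM in the sham mice and 210.3, 230.3 and 236 CPM in the DOCA-salt mice, while smooth muscle cells or pericytes had 0, 0 and 0 UMIs in the sham mice and 0, 0 and 1 in the DOCA-salt mice. Among the 261 sham and 193 DOCA-salt cells of that class, 0 and 1 had a Pdgfra UMI, and 0 of 261 allows a share of up to 1.15% (counting error only). In the sham mice the next type in order was the endothelium, at 3.50, 4.47 and 1.51 CPM in the sham mice and 0.419, 1.78 and 2.38 CPM in the DOCA-salt mice, where 30 of the 31 sham UMIs came from the small glomerular sub-class (27, 30 and 37 cells).

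**Figure D5:**
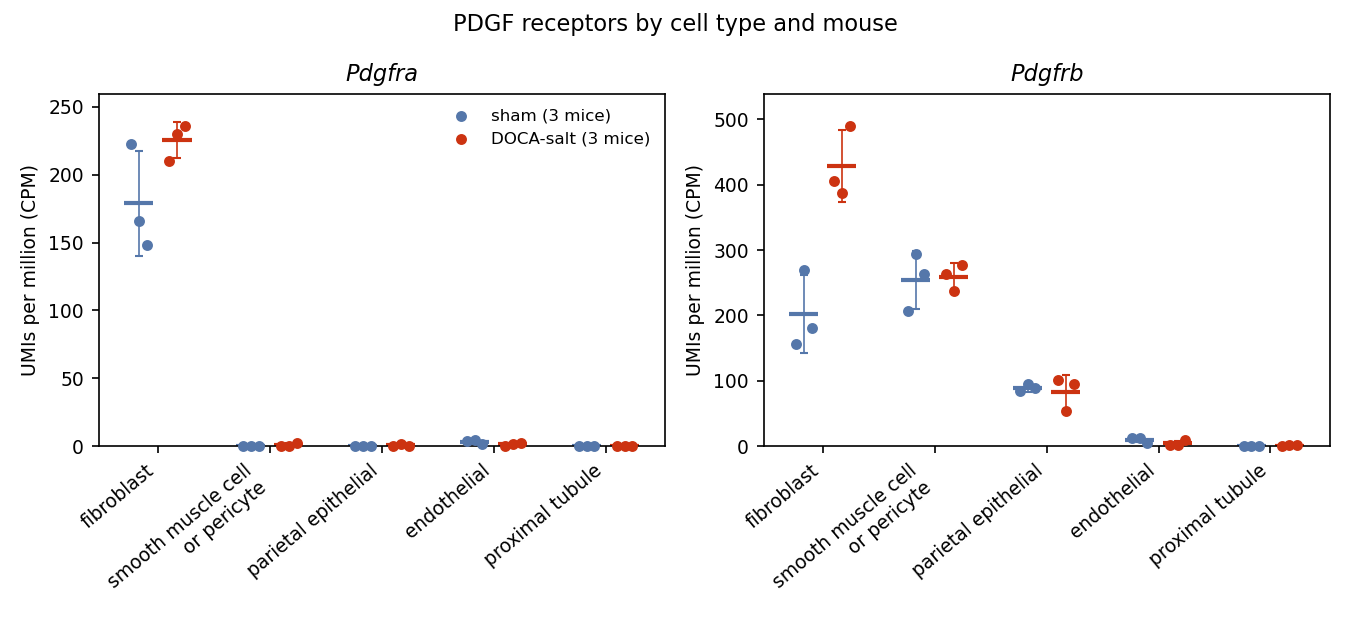
CPM of Pdgfra and Pdgfrb in 5 cell types; points are mice (3 sham in blue, 3 DOCA-salt in red), long bars means, whiskers SD. Pdgfra stands out in fibroblasts alone, and Pdgfrb in fibroblasts, smooth muscle cells or pericytes and parietal epithelial cells.

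The fibroblast comparison rests on few sham cells. Only 1 sham mouse had the 10 cells set as the minimum for a test, so the fit was run with a minimum of 5, on 22, 6 and 9 sham cells. In it 1 of 5 tested members passed, beside 3.08% of all genes, and the median change of all genes tested was 0.18 on the log2 scale. The level of Pdgfra differed little (log2 change 0.25, SE 0.30, adjusted p = 0.776), and the groups overlapped. Pdgfrb stood at 156, 269 and 181 CPM in the sham mice and 406, 387 and 490.5 CPM in the DOCA-salt mice. The log2 change was 1.14 (SE 0.33, adjusted p = 0.0645). The DOCA-salt mice all lay above the sham mice, the threshold was missed, and Pdgfrb passed with DESeq2, without the filter on low counts, at the finer clustering and without sham 2 (0.0156), with 0.00618 to 0.280 over all alternatives.

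Pdgfa passed in fibroblasts, at 0, 41.5 and 0 CPM in the sham mice and 122, 141 and 175 CPM in the DOCA-salt mice (log2 change 4.03, SE 0.72, adjusted p = 0.00326), from 2 UMIs over the sham mice and 1515 over the DOCA-salt mice. The ratio of the pooled levels was 17.1 (exact 95% interval 4.71 to 140.9, counting error only). The call was lost when leaving out sham 1 (0.107), DOCA-salt 2 (0.0665) or DOCA-salt 3 (0.0778), with 7.77e-07 to 0.107 over all alternatives. Different clusters held most of the class in the groups. One, led by Sfrp4, Lum and Dcn, had 21, 3 and 7 cells in the sham mice and 16, 16 and 19 cells in the DOCA-salt mice, and the other, led by Cck, Fbn2 and Cxcl14, had 1, 3 and 2 cells in the sham mice and 202, 282 and 287 cells in the DOCA-salt mice. In the Sfrp4 cluster Pdgfa had 0, 0 and 0 UMIs in the sham mice and 3, 12 and 4 UMIs in the DOCA-salt mice, and in the Cck cluster 0, 2 and 0 UMIs in the sham mice and 298, 585 and 613 UMIs in the DOCA-salt mice. Over the DOCA-salt mice that is 32.4 CPM in the Sfrp4 cluster and 155 CPM in the Cck cluster, so that the make-up of the class and the level per cell cannot be told apart. Both receptors were counted in both clusters. Pdgfrb was at 144 CPM over the sham mice and 208 CPM over the DOCA-salt mice in the Sfrp4 cluster and at 314 CPM over the sham mice and 441 CPM over the DOCA-salt mice in the Cck cluster, and Pdgfra at 202 CPM over the sham mice and 227 CPM over the DOCA-salt mice and at 157 CPM over the sham mice and 228 CPM over the DOCA-salt mice, with 6 sham cells in the Cck cluster.

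Most DOCA-salt fibroblasts had UMIs of both receptors in the same cell: 153 of 218, 223 of 298 and 232 of 306 cells. A further 45, 52 and 54 cells had Pdgfrb alone, and 12, 13 and 12 had Pdgfra alone. In the sham mice 7 of 22, 2 of 6 and 5 of 9 fibroblasts had both. Median depth was 4354 and 11386.5 UMIs per fibroblast in the sham and DOCA-salt groups, and the shares were not compared between them.

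Smooth muscle cells and pericytes, the mural cells of vessels, held Pdgfrb at 206, 294 and 264 CPM in the sham mice and 264, 237 and 277 CPM in the DOCA-salt mice. Its log2 change was -0.017 (SE 0.18, adjusted p = 0.985). The groups overlapped, and 0 of 4 tested members passed there by edgeR, beside 0.0146% of all genes. At an unadjusted p below 0.05 the count was also 0 of 4 by edgeR, and DESeq2 called 0 of 4 after adjustment. Within the class Pdgfrb stood at 333 to 426 CPM in the sham mice and 319.6 to 351 CPM in the DOCA-salt mice in pericytes or mesangial cells and at 98.1 to 148 CPM in the sham mice and 125 to 187 CPM in the DOCA-salt mice in smooth muscle cells. By group mean, the same class had the highest level of Pdgfa and of Pdgfd among the named types. For Pdgfd its range overlapped that of endothelial cells in the sham and in the DOCA-salt mice. Pdgfa was at 258, 224 and 257 CPM in the sham mice and 290.0, 287 and 277 CPM in the DOCA-salt mice (log2 change 0.17, SE 0.17, adjusted p = 0.851) and Pdgfd at 502, 400.5 and 353 CPM in the sham mice and 548, 504 and 526 CPM in the DOCA-salt mice. edgeR put the log2 change at 0.28 (SE 0.18, adjusted p = 0.709). In neither did the groups overlap. The difference between the changes in fibroblasts and in this class did not pass for Pdgfrb (difference of log2 changes 1.03, SE 0.31, adjusted p = 0.215) or for Pdgfa (difference of log2 changes 3.76, SE 0.79, adjusted p = 0.0702). For Pdgfa it passed in 3 of the 6 fits without 1 mouse, those without sham 2 (adjusted p = 0.0151), DOCA-salt 1 (0.0226) and DOCA-salt 2 (0.0185). It ranged from 2.76 without sham 1 to 10.45 without sham 2.

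When fibroblasts and mural cells were pooled as stromal cells, 3 of 6 tested members passed, beside 27.2% of all genes. Pdgfra rose (log2 change 2.83, SE 0.29, adjusted p = 2.05e-05), Pdgfrb rose (log2 change 0.69, SE 0.19, adjusted p = 0.0155) and Pdgfd fell (log2 change -1.67, SE 0.17, adjusted p = 2.19e-05), from 316 to 418 CPM in the sham mice and 108 to 137 CPM in the DOCA-salt mice. Fibroblasts were 22 of 96, 6 of 97 and 9 of 105 stromal cells in the sham mice and 218 of 285, 298 of 365 and 306 of 365 in the DOCA-salt mice. The unnamed cluster led by Hpse2, Col19a1 and Myocd is not counted in this pool. Pdgfd alone in fibroblasts was at 41.5 to 82.3 CPM in the sham mice and 47.6 to 59.1 CPM in the DOCA-salt mice (log2 change -0.26, SE 0.42, adjusted p = 0.844). Without sham 1, which held the most sham fibroblasts, the log2 change of Pdgfra was 3.53. The Pdgfrb call was lost when leaving out sham 1 (0.0578) or DOCA-salt 3 (0.0662), with 2.28e-04 to 0.0662 over all alternatives.

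Parietal epithelial cells were the third type with Pdgfrb, at 84.1, 95.3 and 88.3 CPM in the sham mice and 102, 53.1 and 94.7 CPM in the DOCA-salt mice. This was a log2 change of -0.11 (SE 0.22, adjusted p = 0.906), with overlap. The pericyte marker Rgs5 was at 1.24 to 3.84 CPM in the sham mice and 2.24 to 23.9 CPM in the DOCA-salt mice in that class. The smooth muscle marker Acta2 was higher there, at 68.0 to 139 CPM in the sham mice and 359 to 1073 CPM in the DOCA-salt mice. The summed smooth muscle and pericyte markers of this class also differed, as given above, and their part in the Pdgfrb values was not tested. In glomerular endothelial cells Pdgfrb stood at 153, 138 and 58.3 CPM in the sham mice and 0, 12.2 and 77.3 CPM in the DOCA-salt mice (log2 change -2.10, SE 0.59, adjusted p = 0.110) on 93 sham and 13 DOCA-salt UMIs. The groups overlapped at the highest DOCA-salt mouse. Pericytes or mesangial cells held Pdgfrb at a sham mean of 365 CPM, and their part in the glomerular values was not tested.

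The receptors also passed edgeR's test in the proximal tubule and in all tubular cells pooled, at trace levels. In the proximal tubule the log2 change was 3.34 for Pdgfra (adjusted p = 0.00429) and 2.06 for Pdgfrb (adjusted p = 0.00927), beside 7.35% of all genes called. In the pool it was 3.27 (adjusted p = 0.00342) and 2.04 (adjusted p = 0.00602), beside 8.31% of all genes. Pdgfra in pooled tubular cells was at 0.0381, 0.0171 and 0.0361 CPM in the sham mice and 0.253, 0.367 and 0.363 CPM in the DOCA-salt mice and Pdgfrb at 0.203, 0.205 and 0.307 CPM in the sham mice and 0.720, 1.07 and 1.26 CPM in the DOCA-salt mice. Dcn, a fibroblast gene, was at 1.84 to 3.66 CPM in the sham mice and 6.42 to 6.98 CPM in the DOCA-salt mice in the same sums, and Col1a1 at 0.0683 to 0.432 CPM in the sham mice and 3.32 to 5.51 CPM in the DOCA-salt mice. After thinning, the share of proximal tubule cells with a Pdgfra UMI was 0.00119 to 0.00181% in the sham mice and 0.0292 to 0.0526% in the DOCA-salt mice. In T or NK cells it was 0 in all 6 mice, but these cells were too few to show shares this low, so their 0 gives no background. The part of the fibroblast genes in these receptor values was not tested.

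The order of the types by level changed for some members. In the sham mice Pdgfb was highest in injured tubule cells (207 ± 11.6 CPM) and endothelial cells (184 ± 16.8 CPM), whose ranges overlapped, then in parietal epithelial cells (93.9 ± 16.6 CPM) and macrophages (85.9 ± 5.02 CPM), which overlapped too. In the DOCA-salt mice endothelial cells came first (205 ± 13.3 CPM), and parietal epithelial cells (124 ± 25.9 CPM), injured tubule (103 ± 8.13 CPM), connecting tubule (101 ± 56.3 CPM) and macrophages (95.4 ± 15.2 CPM) followed, each overlapping the next. For Pdgfd mural cells and endothelial cells led in both groups with overlapping ranges, ahead of parietal epithelial cells and the thick ascending limb. For Pdgfa mural cells led, ahead of the thin limb, in both groups. For Pdgfc the parietal epithelial cells, proximal tubule, thick ascending limb and injured tubule overlapped one another in order in both groups. For Pdgfrb mural cells and fibroblasts overlapped in the sham mice, and fibroblasts lay above mural cells without overlap in the DOCA-salt mice (SD over n = 3 mice throughout).

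RefSeq promoter sequences (250 bases before to 50 after the start, build GRCm38.p6) were held for 4 of the 6 members, Pdgfa, Pdgfc, Pdgfd and Pdgfra. Pdgfa, Pdgfc and Pdgfd all rose in the connecting tubule, and the promoter of Pdgfc is not shown. The promoters of Pdgfd and Pdgfa are shown 5′ to 3′ on the gene's strand, with the Pdgfd window at chr9:6168236-6168535 (plus strand) and the Pdgfa windows at chr5:138994895-138995194 and chr5:138994232-138994531 (minus strand). Capitals mark matches, on either strand, to any of 4 motifs: AGAACA (the half-site bound by mineralocorticoid and glucocorticoid receptors), TGANTCA (AP-1), GGGCGG (the GC box) and TATAAA (the TATA box). No 2 matches overlapped.
Pdgfd: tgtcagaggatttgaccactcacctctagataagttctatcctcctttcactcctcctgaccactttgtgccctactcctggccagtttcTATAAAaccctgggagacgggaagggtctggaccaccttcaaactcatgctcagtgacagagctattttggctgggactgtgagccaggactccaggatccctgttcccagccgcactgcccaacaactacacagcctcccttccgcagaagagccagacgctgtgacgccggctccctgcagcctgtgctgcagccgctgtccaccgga
Pdgfa, upstream start: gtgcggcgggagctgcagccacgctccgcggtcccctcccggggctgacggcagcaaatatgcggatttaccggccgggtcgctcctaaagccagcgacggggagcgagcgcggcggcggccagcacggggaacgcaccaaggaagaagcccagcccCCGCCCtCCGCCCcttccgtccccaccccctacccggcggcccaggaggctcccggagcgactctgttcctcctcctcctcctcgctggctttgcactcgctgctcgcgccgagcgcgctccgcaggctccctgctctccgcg
Pdgfa, downstream start: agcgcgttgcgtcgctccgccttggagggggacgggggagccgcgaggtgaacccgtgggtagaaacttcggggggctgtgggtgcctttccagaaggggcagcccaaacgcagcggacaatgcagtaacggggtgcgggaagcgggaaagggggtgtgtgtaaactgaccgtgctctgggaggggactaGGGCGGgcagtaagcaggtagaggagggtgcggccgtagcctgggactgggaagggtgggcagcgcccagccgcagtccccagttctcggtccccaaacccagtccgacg
Pdgfd held 1 TATAAA, at bases 91 to 96 of the window, and no other of the 4 motifs. The Pdgfa windows held 2 and 1 GGGCGG and no other. Neither gene had AGAACA or TGANTCA in these windows. Of 32851 mouse promoters of the same length, 13.6% held TATAAA, 35.7% GGGCGG, 19.0% AGAACA and 7.81% TGANTCA. A match is a description of these letters only.

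Genes that process PDGF ligands, bind them or carry the receptors' signal were followed as a list of 55. In whole kidneys, where fibroblasts and macrophages (1.60 ± 0.196% of the sham cells and 6.50 ± 1.27% of the DOCA-salt cells) also differed in number, 54 were tested, 9 rose and 1 fell, beside 17.2% of all genes in either direction, with a median log2 change over the list of 0.15 against -0.02 over all genes. Among the 5 binding partners, 3 rose: Lrp1, an endocytic co-receptor of PDGFR-beta (2.54 to 21.6 CPM, log2 change 2.96, SE 0.22, adjusted p = 3.20e-04), Sparc, a matrix protein that binds PDGF chains (90.8 to 452 CPM, log2 change 2.19, SE 0.24, adjusted p = 0.00116), and Nrp1, a co-receptor (60.7 to 114 CPM, log2 change 0.78, SE 0.15, adjusted p = 0.00998). None of the 6 processing genes passed by edgeR in whole kidneys, and 0 of 6 had an unadjusted p below 0.05. Of the 22 signalling genes, the kinase Fyn (20.003 to 42.3 CPM, log2 change 0.96, SE 0.18, adjusted p = 0.0103), the adaptor Nck2 (17.6 to 25.6 CPM, log2 change 0.43, SE 0.10, adjusted p = 0.0260) and Map2k1 (26.1 to 35.2 CPM, log2 change 0.31, SE 0.084, adjusted p = 0.0376) rose and Pik3ca, a catalytic subunit of PI3 kinase, fell (83.3 to 72.8 CPM, log2 change -0.31, SE 0.089, adjusted p = 0.0472). Spry1, an inhibitor of receptor tyrosine kinase signalling, rose among the negative regulators (11.8 to 21.97 CPM, log2 change 0.79, SE 0.22, adjusted p = 0.0467), and Ccnd1, the cell cycle gene cyclin D1, among the response genes (139 to 227 CPM, log2 change 0.59, SE 0.17, adjusted p = 0.0441). These genes were not tested with fibroblasts left out.

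The same list was counted by cell type. In fibroblasts 51 of 55 were tested, 4 rose and 0 fell, beside 3.08% of all genes called, with a median log2 change of 0.32 against 0.18 over all genes. As for Pdgfa, different clusters held most of the fibroblasts in the groups. There Thbs1, which activates latent TGF-beta and binds PDGF, rose (207 to 729 CPM, log2 change 2.10, SE 0.52, adjusted p = 0.0277), as did the negative regulators Rasa1 (28.9 to 130.5 CPM, log2 change 2.07, SE 0.45, adjusted p = 0.0142) and Spry1 (49.6 to 146 CPM, log2 change 1.71, SE 0.41, adjusted p = 0.0249), and Cspg4, the proteoglycan NG2 of mural cells, was at 0 CPM in the sham mean and 34.6 CPM in the DOCA-salt mean. Among the list in smooth muscle cells or pericytes, 47 of 55 were tested, 0 rose and 0 fell by edgeR, beside 0.0146% of all genes, and 8 of 47 had an unadjusted p below 0.05. In endothelial cells 52 of 55 were tested, 8 rose and 3 fell, beside 8.91% of all genes, with a median of 0.12 against -0.029 over all genes. Sparc (1178 to 2618 CPM, log2 change 1.15, SE 0.18, adjusted p = 0.00303) and Thbs1 (7.89 to 22.1 CPM, log2 change 1.49, SE 0.32, adjusted p = 0.0156) rose, and Pcsk5, a furin-type protease, fell (454 to 242 CPM, log2 change -0.92, SE 0.13, adjusted p = 0.00234), as did the receptor phosphatase Ptprj (119 to 57.4 CPM, log2 change -1.06, SE 0.28, adjusted p = 0.0396). Of the 10 negative regulators tested in endothelial cells, Ptprj was the 1 that fell, while 2 rose and their median log2 change was 0.38. Gab1, an adaptor of receptor tyrosine kinases, rose there (54.6 to 96.3 CPM, log2 change 0.82, SE 0.15, adjusted p = 0.00695). The endothelial clusters that held these cells differed between the groups, as given above.

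In pooled tubular cells 54 of 55 were tested, 7 rose and 0 fell, beside 8.31% of all genes, with a median of 0.086 against -0.013. Those that rose included Plat, the tissue plasminogen activator that cuts the CUB domain from PDGF-C (2.76 to 8.63 CPM, log2 change 1.60, SE 0.26, adjusted p = 0.00852), Sparc (13.8 to 53.3 CPM, log2 change 1.89, SE 0.31, adjusted p = 0.00920) and Nrp1 (25.99 to 41.2 CPM, log2 change 0.62, SE 0.10, adjusted p = 0.0107). In the same sums Col1a1 and Col3a1, collagen genes of fibroblasts, stood at 0.0683 to 0.432 CPM in the sham mice and 3.32 to 5.51 CPM in the DOCA-salt mice and at 0.102 to 0.419 CPM in the sham mice and 3.55 to 5.64 CPM in the DOCA-salt mice, and the injured tubule cells were more numerous in the DOCA-salt mice. The part of either was not tested. In stromal cells 53 of 55 were tested, 15 rose and 11 fell, beside 27.2% of all genes, with a median of 0.26 against -0.0017, where the fibroblast share of the pool also differed. In that pool Thbs1 (49.2 to 645 CPM, log2 change 3.70, SE 0.32, adjusted p = 7.68e-06) and Pik3r1, a regulatory subunit of PI3 kinase, (122 to 436 CPM, log2 change 1.81, SE 0.17, adjusted p = 9.91e-06), rose, and Ccnd1 (367 to 80.4 CPM, log2 change -2.22, SE 0.19, adjusted p = 6.21e-06) and Cspg4 (206 to 66.7 CPM, log2 change -1.65, SE 0.15, adjusted p = 9.91e-06) fell. Of the 12 growth factor response genes, 7 of 11 tested fell in stromal cells and 0 rose, and of 13 genes that respond to tissue dissociation 5 fell and 0 rose in the same sums. In fibroblasts alone 0 of 11 tested response genes passed, and in smooth muscle cells or pericytes alone 0 of 10. The shares of all genes called were 3.08% and 0.0146% there, against 27.2% in the pool. The parts of the fibroblast share and of dissociation in the fall of the response genes were not tested.

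The connecting tubule was added to these comparisons after the members' values were seen, and there 48 of 55 were tested, 8 rose and 9 fell, beside 10.6% of all genes higher and 10.2% lower, with a median of 0.12 against -0.017. Plau, the urokinase that cuts the CUB domain of PDGF-D, rose (9.44 to 45.9 CPM, log2 change 2.09, SE 0.32, adjusted p = 2.97e-04), as did Pcsk5 (7.29 to 24.6 CPM, log2 change 1.62, SE 0.37, adjusted p = 0.00594), Sparc (5.30 to 64.5 CPM, log2 change 3.43, SE 0.31, adjusted p = 3.08e-06) and Nrp1 (21.3 to 54.9 CPM, log2 change 1.20, SE 0.21, adjusted p = 0.00107). Of the 11 response genes tested, 3 rose and 6 fell, with a median log2 change of -0.50. Among them Myc rose (2.88 to 13.9 CPM, log2 change 2.11, SE 0.44, adjusted p = 0.00328) and Fos fell (1802 to 1051 CPM, log2 change -0.93, SE 0.18, adjusted p = 0.00214). Of the 13 dissociation genes 2 rose and 2 fell.

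The genes whose level over 18 named cell types was most like a member's were taken as the 5 with the highest Pearson correlation of log2(CPM + 1), among 11903 genes with at least 20 CPM in a type. For Pdgfra these were Frmd3, Tspan11, 4930578G10Rik, Itgbl1 and Megf10 (r = 0.982 to 0.996), and for Pdgfrb Clip3, Lama2, Tmem100, Foxs1 and Islr (r = 0.966 to 0.979). For Pdgfa they were Ift43, Samd4, Cd151, Trip6 and Parva (r = 0.935 to 0.971). Pdgfd had Tns2, ENSMUSG00000121513, Dysf, Tnks1bp1 and Zbtb7c (r = 0.876 to 0.923). Pdgfb had Hipk2, Cebpg, Cttnbp2nl, Eif6 and Ino80b (r = 0.790 to 0.826), and Pdgfc had Pth1r, Cachd1, Phyhd1, Itgb8 and Fgfr4 (r = 0.795 to 0.841). The types share libraries and depth, so these values describe likeness only.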

How the data were processed

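Kidney cells of 3 sham and 3 DOCA-salt mice were analysed from UMI counts per gene and barcode, which the authors deposited as 1 filtered matrix per mouse. Per the labels, the authors aligned to GRCm39 with Cell Ranger 9.0.0 and used Seurat 4.0.0 in R 4.0.3, while the file header names another Cell Ranger version. The values are whole UMI counts, with no normalization, of 33696 genes, and 0 columns belonged to other samples.

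The study's limits on barcodes were applied: the lowest in the files already had 500 UMIs and 170 genes, and barcodes with more than 50% mitochondrial or 5% haemoglobin UMIs were removed. The 544 to 947 barcodes per mouse with the highest Scrublet scores were then left out as doublet-like, a number set from the usual doublet rate at that number of cells rather than by a score threshold. Cells were clustered by the Leiden method in 2 rounds (resolution 1; scanpy 1.11.5, leidenalg 0.10.2, igraph 0.11.9, Python 3.11.15) and clusters were named from fixed markers. A condition on naming was added after the clusters were seen, since 1 cluster had been named against its leading genes. Unnamed cells were 11.3 to 20.8% of the sham and 10.0 to 17.6% of the DOCA-salt cells, and count in the whole kidney only.

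UMIs were summed per mouse and type, with a minimum of 10 cells per mouse (5 for fibroblasts, a choice made after the cell numbers were seen). Groups were compared with edgeR 4.0.16 (R 4.3.3, limma 3.58.1), using TMM normalization, filterByExpr and the quasi-likelihood test, and p-values were adjusted by Benjamini and Hochberg's method across the genes of each fit. Differences of changes were interaction terms, tested over the same genes. Cell shares and shares of cells were compared by two-sided exact permutation tests over mice. Labels name 1 mouse per library, so that p-values measure the spread between mice. In the interaction fits 1 spread per gene was estimated over both types, so their p-values do not measure the spread within either type alone. The scripts were tested on simulated data. Intervals and limits from counts cover counting error only (a limit for 0 is 3 counts).

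The members and gene lists were chosen with earlier results of these data known. Named were all members, up to 4 pathway genes per group and comparison past the threshold, and the 5 genes most like each member. The connecting tubule was added to the pathway comparison, and genes there named, after the values were seen. Sensitivity of the results was examined with DESeq2 1.42.0, other normalizations, no filter on low counts, without each mouse, a replicate block, at most 20% mitochondrial UMIs, a Leiden resolution of 2, no doublet removal, other sets of cells and other thinning.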

Additional observations from a re-analysis of the deposited data

Results flagged for a closer look

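In 8 cases an interaction term found that a member's change differed between a pair of cell types. The pairs tested were endothelial against tubular cells, fibroblasts against smooth muscle cells or pericytes, and the connecting tubule against the proximal and against the distal convoluted tubule. The pair of fibroblasts and smooth muscle cells or pericytes was not among the 8 cases. The share of all genes that differed in each pair is not given here. Within the connecting tubule 20.8% of all genes changed, so the count alone does not set the members apart. The connecting tubule changed more than the proximal tubule for Pdgfb (difference of log2 changes 3.77), Pdgfd (3.52) and Pdgfa (1.02), and more than the distal convoluted tubule for Pdgfd (2.20). The change in endothelial cells minus that in pooled tubular cells was -0.81 for Pdgfb and -0.77 for Pdgfc, in pools whose make-up differed between the groups. For Pdgfc the log2 change was -0.56 in endothelial cells (10.5 to 16.4 CPM in the sham mice and 7.34 to 12.2 CPM in the DOCA-salt mice) and 0.21 in tubular cells, and neither passed on its own. For the receptors the same difference was -4.26 (Pdgfra) and -3.33 (Pdgfrb), with tubular levels below 2 CPM in every mouse. Among the endothelial sub-classes, the small glomerular one held most of the sham UMIs and went from 58.3 to 153 CPM in the sham mice to 0 to 77.3 CPM in the DOCA-salt mice for Pdgfrb. In arterial cells Pdgfrb was higher in the DOCA-salt mice, at 0 to 1.22 CPM in the sham mice and 3.95 to 11.1 CPM in the DOCA-salt mice, and in capillary cells it stood at 0 to 1.61 CPM in the sham mice and 0.350 to 6.21 CPM in the DOCA-salt mice. Pdgfra in the glomerular cells was at 14.6 to 51.3 CPM in the sham mice and 0 to 23.2 CPM in the DOCA-salt mice, in arterial cells at 0 to 0.412 CPM in the sham mice and 1.11 to 1.69 CPM in the DOCA-salt mice and in capillary cells at 0 CPM in the sham mice and 0 to 2.07 CPM in the DOCA-salt mice. The difference for Pdgfrb was -4.10 without DOCA-salt 3. The part of pericytes or mesangial cells in the glomerular Pdgfrb values was not tested. In the sums of tubular cells the fibroblast gene Dcn differed too, at 1.84 to 3.66 CPM in the sham mice and 6.42 to 6.98 CPM in the DOCA-salt mice, and its part in the receptor values was not tested. The call on Pdgfc was lost without sham 1, sham 2, DOCA-salt 2 or DOCA-salt 3, with an adjusted p of 0.00548 to 0.227 over the fits without 1 mouse. The connecting tubule pairs were chosen after the values were seen. No outlier test was run on groups of 3 mice.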

How the results depend on the processing

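In whole kidneys Pdgfd passed the threshold with DESeq2 (log2 change 0.43, adjusted p = 0.0277), with library size only (0.56), without the filter on low counts (0.44) and with at most 20% mitochondrial UMIs (0.55). With fibroblasts left out, Pdgfa (0.27), Pdgfra (1.95) and Pdgfrb (0.36) no longer passed, nor did they with smooth muscle cells and pericytes left out as well (0.27, 1.94 and 0.70). The sets without these cells also hold fewer UMIs, and the cause was not tested for any of these settings. Pdgfc in whole kidneys turned direction without doublet removal (-0.0012), without sham 1 and without DOCA-salt 2. Over the fits without 1 mouse the log2 change in whole kidneys ranged from 0.30 to 0.45 for Pdgfa, 0.66 to 0.98 for Pdgfb, -0.027 to 0.11 for Pdgfc, 0.31 to 0.54 for Pdgfd, 4.40 to 4.94 for Pdgfra and 2.14 to 2.64 for Pdgfrb. In fibroblasts Pdgfa ranged from 3.08 to 11.25, the last without sham 2, where the sham mice held 0 UMIs. With fibroblasts and cycling cells left out of the count, pairs of a member and a cell type past the threshold numbered 15, and 9 to 13 in these fits, with 9 without sham 3. They numbered 21 without the filter on low counts and 12 to 16 under the other alternatives. In the fits as reported, the shares of all genes called in these types ran from 0.0146% (smooth muscle cells or pericytes) to 20.8% (connecting tubule). Shares of all genes under the alternatives are not given here, so these counts describe the settings only. Among values not past the threshold the direction turned at Leiden resolution 2 for Pdgfc in fibroblasts (-0.029) and Pdgfb in stromal cells (0.13), with library size only for Pdgfrb in smooth muscle cells or pericytes (0.030), and at 20% mitochondrial UMIs for Pdgfc in the distal convoluted tubule (-0.34), intercalated cells (0.37) and parietal epithelial cells (0.064, and 0.0078 without the filter). Without 1 mouse it turned for Pdgfrb in smooth muscle cells or pericytes (-0.16 to 0.082; sham 2, sham 3 or DOCA-salt 2) and in parietal epithelial cells (-0.26 to 0.12; DOCA-salt 2), for Pdgfc in parietal epithelial cells (-0.12 to 0.11; sham 1 or DOCA-salt 3), the thick ascending limb (-0.13 to 0.057; DOCA-salt 1 or DOCA-salt 3) and fibroblasts (-0.52 to 2.01; sham 1), for Pdgfd in fibroblasts (-0.38 to 0.35; sham 1) and injured tubule cells (-0.25 to 0.14; sham 3), and for Pdgfb in macrophages (-0.015 to 0.20; DOCA-salt 2). Few UMIs limit the sham fibroblasts, at 37 cells in all.

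The replicate numbers in the titles are not said to pair the mice. Same-numbered mice correlated at -0.0188, -0.413 and -0.0479 in their deviations from the group means, and differently numbered ones at -0.255 to 0.274. Deviations of 3 mice from their own mean depend on one another, so these values cannot show whether the mice were paired. With the numbers as a replicate block, 22 of 82 values passed the threshold in place of 27 (6 lost, 1 gained). The share of all genes passing with the block is not given here. Pdgfa in whole kidneys (log2 change 0.38, adjusted p = 0.119) was among those lost, and Pdgfd in the thin limb (adjusted p = 0.0427) was gained.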
